A study of Mus musculus with 22 samples.

Results

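The transcription factors Hnf4a, Foxa1, Foxa2, Foxa3, Cebpa, Prox1, Onecut1 and Tbx3 were followed in fetal mouse liver by transcript count and by CpG methylation. These 8 genes, of 22342 protein-coding genes in the annotation, were taken by name as factors of the hepatoblast. The rule that names them uses no measured value, but it was set with earlier results of these data known. Hepatoblasts are the progenitors of the early liver that give rise to hepatocytes and to the cells of the bile ducts. In textbook accounts, the forkhead proteins Foxa1, Foxa2 and Foxa3 open chromatin at liver genes, the nuclear receptor Hnf4a and the leucine zipper factor Cebpa drive hepatocyte genes, Prox1 and Onecut1 are homeodomain proteins needed for growth of the liver bud and for the choice between hepatocyte and bile duct, and the T-box repressor Tbx3 favours the hepatocyte side. Promoters rich in CpG are as a rule free of methylation whether or not the gene is transcribed, while CpG-poor promoters and enhancers are often methylated where they are not in use.

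The series asked what loss of Rlf, a zinc finger protein found as a modifier of epigenetic silencing, does to methylation and transcription, and holds 22 samples. Whole genome bisulphite sequencing (WGBS) covered 12 of them, with 2 wild-type and 2 mutant samples at each of 3 stages, namely the embryo at E10.5 and the liver at E14.5 and at E18.5, where E is the day of embryonic development. RNA-seq of polyadenylated RNA covered 6 E14.5 livers, 3 of each genotype, and 4 H3K4me1 samples were not analysed here. Mutants were homozygous for the chemically induced allele Rlf MommeD28, which the study describes as a null allele, and wild types were Rlf+/+. All animals, wild types included, were of Line3 on FVB/NJ, an inbred strain, and carried a multi-copy GFP transgene driven by the human alpha-globin promoter and HS-40 enhancer. The E10.5 embryos were labelled male, the E18.5 livers female, and the E14.5 livers used for WGBS 1 male (replicate 1) and 1 female (replicate 2) of each genotype. Tissue and stage cannot be told apart between the embryos and the livers, and sex can be held the same only through the E14.5 livers. The study calls the E14.5 livers used for WGBS littermates, and the labels say nothing more of litters, so p-values measure the spread between these samples.

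The RNA libraries held 12928313 to 14621004 counts. Read counts summed over CpGs in the WGBS libraries were 319816606 to 362947067 at E10.5, 628890633 to 710948789 at E14.5 and 346347934 to 357279702 at E18.5. A read counts there once for each CpG it covers. Methylation over all CpGs was 70.7% and 72.0% in the wild-type and 73.3% and 74.0% in the mutant embryos, 56.4% and 58.5% against 60.3% and 59.2% at E14.5, and 61.4% and 61.7% against 65.5% and 61.4% at E18.5. Replicate 1 of the E18.5 mutants stood apart from the other 3 livers of its stage. The Rlf transcript itself was not lower in the mutants, with 70.03, 72.3 and 68.9 CPM (counts scaled to the library total after TMM normalization) in wild types and 76.3, 79.8 and 67.6 in mutants, so it gave no check of the labels.

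All 8 factors were transcribed in E14.5 liver and passed the filter on low counts, and none passed the test for a difference between the genotypes. On the RPKM scale, in which CPM is divided by exon length so that genes can be compared, the mean over the 6 livers was 50.2 for Hnf4a, 36.6 for Cebpa, 19.98 for Foxa3 and 19.4 for Prox1, which placed them at the 90.5th, 86.4th, 75.3rd and 74.8th percentile of the 14183 genes tested. Foxa2 at 5.98, Foxa1 at 4.21, Tbx3 at 2.42 and Onecut1 at 1.81 RPKM lay below the median gene, down to the 22.4th percentile for Onecut1. Between neighbours in this order, the ranges over the 6 livers overlapped for Foxa3 with Prox1 and for Tbx3 with Onecut1, and did not overlap for the other neighbouring pairs. Liver at this age is mostly blood-forming tissue, and in bulk RNA fewer hepatoblasts and less RNA per hepatoblast cannot be told apart.

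**Figure D1:**
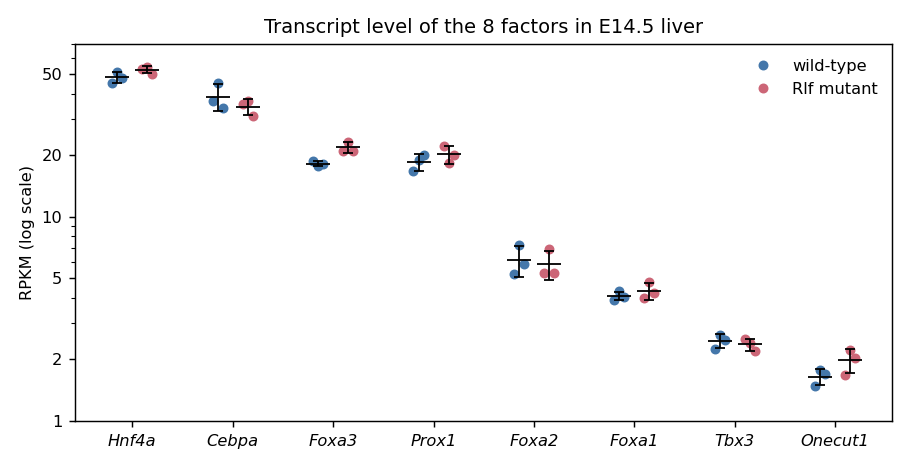
Transcript level of each factor in RPKM on a log axis, with 1 point per E14.5 liver, a bar at the mean and error bars of 1 SD (n = 3 per genotype). The mutant and wild-type points are separate for Foxa3 and overlap for the other 7 factors.

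Foxa3, the forkhead factor that stays high in mature hepatocytes, was the factor with the smallest p. Its counts were 498, 545 and 528 in wild-type and 553, 659 and 612 in mutant livers. In CPM these were 38.0, 36.0 and 37.0 against 42.9, 47.5 and 43.0, a mean of 37.0 ± 0.992 against 44.5 ± 2.66 (SD, n = 3 each). Every mutant liver lay above every wild-type liver. The difference was 0.27 on the log2 scale (SE 0.071, 95% interval 0.11 to 0.42), a 1.20-fold higher mean in mutants, with an adjusted p of 0.0969 by edgeR's quasi-likelihood test over all genes. The call threshold was an adjusted p of 0.05, so Foxa3 was not called, and its adjusted p lay between 0.072 and 0.276 over the other settings tried. It was the only one of the 8 factors whose groups did not overlap, against 20.3% of all genes tested.

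The other forkhead genes were lower and overlapped between the genotypes. Foxa1, a pioneer factor of the liver bud, had counts of 164, 208 and 183 in wild types and 164, 212 and 191 in mutants. Foxa2, which acts with it from the foregut onwards, had counts of 162, 260 and 198 against 162, 228 and 179. The second liver of each genotype was the highest for both genes, and the first wild-type and first mutant liver had the same count of each. The log2 differences were 0.08 (SE 0.11) for Foxa1 and -0.07 (SE 0.15) for Foxa2, with adjusted p of 0.778 and 0.883 (edgeR), and the direction of Foxa2 turned when the second wild-type liver was left out (0.08) or the third mutant liver (0.0023).

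Hnf4a, the nuclear receptor at the head of the hepatocyte programme, had 227, 257 and 239 CPM in wild types and 266, 272 and 251 in mutants. The lowest mutant liver lay just under the highest wild-type liver, and the difference of 0.13 (log2, SE 0.068, 95% interval -0.02 to 0.28) had an adjusted p of 0.427 (edgeR). Cebpa, which restrains proliferation and drives metabolic genes, had 96.7, 119 and 89.7 CPM in wild types and 93.9, 97.4 and 82.0 in mutants. Its spread came mostly from the second wild-type liver, and its difference was -0.16 (log2, SE 0.098, adjusted p = 0.485, edgeR).

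Of the homeodomain genes, Prox1 had 68.9, 78.2 and 83.1 CPM in wild types and 91.7, 75.5 and 82.6 in mutants, a log2 difference of 0.12 (SE 0.085, adjusted p = 0.578, edgeR). Onecut1, also known as Hnf6, was the lowest of the factors, with counts of 41, 57 and 51 against 46, 65 and 61. At such counts its difference of 0.26 (log2, SE 0.18) had a 95% interval from -0.13 to 0.64, so at this depth a difference as large as that of Foxa3 could not be told from 0. Tbx3 had counts of 159, 215 and 191 in wild types and 174, 178 and 168 in mutants, and its difference of -0.06 (log2, SE 0.11) had an adjusted p of 0.846 (edgeR). The groups overlapped for Prox1, Onecut1 and Tbx3. Reads were counted without regard to strand, and annotated transcripts overlap the exons of 3 of the factors, Gm17566 on the other strand of Prox1, Gm2301 on the other strand of Tbx3 and Gm16551 on the same strand as Onecut1, so reads that fell in both genes could go uncounted under the authors' counting rule.

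Across all genes 197 of 14183 (1.39%) were called, 99 higher and 98 lower in mutants, so a count of 0 of 8 is near what the share of all genes gives. At an unadjusted p under 0.05 the count was 1 of 8 by edgeR, beside 14.6% of all genes, and DESeq2 also called 0 of 8. With replicate number as a block, since livers numbered alike moved together, 460 genes were called but still 0 of the 8 factors, and 3 of 8 had an unadjusted p under 0.05, beside 17.0% of all genes. Leaving out single livers moved the total from 66, without the first mutant liver, to 224, without the second wild-type liver, with 0 of 8 called each time. Single livers also moved the differences of factors that were not called, to between -0.24 and -0.035 for Cebpa, 0.0041 and 0.14 for Foxa1, 0.043 and 0.18 for Prox1, 0.17 and 0.36 for Onecut1, 0.084 and 0.17 for Hnf4a, and -0.12 and -0.0096 for Tbx3 (log2). The median log2 difference was 0.10 over the 8 factors and -0.0017 over all genes tested.

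Related genes were read from fixed lists to place the factors among the cells of the liver. Of 28 other liver transcription factors 25 were tested, 2 rose and 0 fell. Sox9, a factor of the bile duct lineage, rose by 1.39 on the log2 scale (SE 0.23, adjusted p = 0.014, edgeR), from 2.06, 1.26 and 1.40 CPM in wild types to 3.96, 3.54 and 4.77 in mutants. Zbtb20, a repressor of Afp after birth, rose by 0.80 (adjusted p = 0.018), with 6.33, 6.21 and 5.96 against 12.7, 9.88 and 9.69 CPM, but the annotation gives its name to 2 identifiers and the larger was used. Among 28 hepatocyte products, 25 of them tested, 1 rose, Trf, the iron carrier transferrin (0.46, adjusted p = 0.029), which also has 2 identifiers. The median log2 difference was 0.07 for the other factors and 0.04 for the hepatocyte products.

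Markers of the cell types in the tissue were read the same way, and their part in the values above was not tested. The 8 hepatoblast markers were all tested and 0 were called, with a median log2 difference of 0.14. Of these, 6 were higher in mutants, and Cdh1 (-0.19) and Krt8 (-0.04) were lower. The list summed to 53046 to 63182 CPM in wild types and 64992 to 75625 in mutants, most of it from Afp and Alb. Afp and Alb, the secreted proteins that define these cells, lay at 23322 to 37862 CPM, so hepatoblast RNA was present in every liver. Of 4 biliary markers Sox9 alone was called, and the others went both ways, with Krt7 at -0.38, Krt19 at -0.22 and Spp1 at 0.87 in a list whose median was 0.32. The 12 erythroid markers, 11 of them matched and tested, had 0 called and a median of -0.12, and summed to 30029 to 55094 CPM in wild types and 37118 to 40435 in mutants. Of 6 neutrophil markers 3 fell, namely Elane (-0.76), Ngp (-0.93) and S100a8 (-0.67), with adjusted p of 0.049, 0.014 and 0.019 (edgeR). Mpo (0.13), Prtn3 (-0.02) and Ctsg (-0.03) were not called, and the list median was -0.35. Pf4, a platelet chemokine, rose by 0.40 (adjusted p = 0.014) among 6 megakaryocyte markers, which had a median of 0.30. The macrophage, endothelial and mesenchymal lists, 6 genes each, had 0 called and medians of 0.07, 0.19 and 0.28. Of 6 markers of neighbouring foregut only Vil1 was high enough to be tested (0.18, not called), and Nkx2-1, which marks lung and thyroid, was at 0 in all 6 livers.

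The genes whose level followed the mean of the 8 standardized factors most closely over the 6 livers, among 9721 genes with at least 10 CPM, were Tmem55b, Stard4 and Acer2, with Pearson's r of 0.996, 0.985 and 0.977. Stard4 carries cholesterol between membranes and Acer2 is a ceramidase. These are correlations over 6 livers of both genotypes, and 159 genes exceeded 0.9. Between the factors themselves r ran from -0.42 for Foxa3 with Cebpa to 0.88 for Foxa1 with Onecut1.

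The windows around the starts of the 8 genes fell into 3 levels of methylation, and Hnf4a stood at one end. Methylation is given as the methylated share of reads, in percent, at CpGs that had 6 or more reads in each of the 12 libraries. It was taken in the 1 kb to either side of the transcription start site (the TSS window), in the shores from 1 to 3 kb on both sides, and in the rest of the gene (the gene body). The TSS windows of 6 genes hold many such covered CpGs, from 89 at Foxa2 to 193 at Cebpa, which is at the 99.1st percentile of all TSS windows. Prox1 has 50 covered CpGs and Hnf4a has 36, below the median of 58. CpGs with fewer reads are left out of these counts, so they do not measure CpG density alone. Depth in the Prox1 TSS window went down to 13.2 reads per CpG. The TSS windows of Foxa1, Foxa2, Cebpa, Prox1, Onecut1 and Tbx3 were at most 3.29% methylated in all 12 libraries. That of Hnf4a was between 62.1% and 90.4%, and that of Foxa3 between 9.01% and 21.7%. The Foxa3 level averages a low upstream part and a more methylated intron 1, which are given below.

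A stretch before Hnf4a and one before Cebpa are printed from the reference, read 5′ to 3′ along the gene, with each CpG in capitals. The stretch before Hnf4a has few CpGs and was 77.9% to 84.3% methylated in embryos and 47.3% to 69.8% in livers, while the stretch before Cebpa has many and was at most 0.411% in all 12 libraries. Builds are mm9 throughout.
Hnf4a, chr2:163372285-163372534, plus strand: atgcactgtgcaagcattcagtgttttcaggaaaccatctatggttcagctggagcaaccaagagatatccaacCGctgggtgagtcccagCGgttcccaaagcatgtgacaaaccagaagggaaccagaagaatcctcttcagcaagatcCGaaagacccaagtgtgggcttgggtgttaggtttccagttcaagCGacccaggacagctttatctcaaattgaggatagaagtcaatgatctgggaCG
Cebpa, chr7:35903578-35903827, plus strand: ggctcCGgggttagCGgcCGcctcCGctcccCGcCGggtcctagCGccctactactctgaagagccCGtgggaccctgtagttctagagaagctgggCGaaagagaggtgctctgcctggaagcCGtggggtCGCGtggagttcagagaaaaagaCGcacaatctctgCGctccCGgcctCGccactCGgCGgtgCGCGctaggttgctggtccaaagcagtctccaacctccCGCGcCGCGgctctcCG
The Hnf4a stretch holds 5 CpGs and the Cebpa stretch 25, in the same 250 bases.

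Hnf4a was the factor whose start lost most methylation between embryo and liver. The TSS window on chromosome 2, around the start of the longest coding transcript at position 163372924, was 85.2% and 89.0% methylated in wild-type and 90.4% and 87.7% in mutant embryos. At E14.5 the values were 64.5%, 62.1%, 68.7% and 68.2% in the same order, and at E18.5 they were 62.1%, 62.1%, 69.5% and 65.1%. All 8 livers lay below all 4 embryos, the male E14.5 livers, at 64.5% and 68.7%, included. The fall of 22.2 percentage points from E10.5 embryo to E14.5 liver passed the test (adjusted p = 1.09e-10, edgeR over all windows), as did the falls of 14.8 points in its shores and 20.1 points in its gene body. Over all genes the median change was -0.54 points at the TSS, -14.6 in the shores and -13.7 in the body. Of all TSS windows, 45.3% were under 5% methylated in wild-type embryos, where little fall is possible. Their upper quartile was 72.6% in wild-type embryos and 50.2% in wild-type E14.5 livers, and 33.4% of TSS windows were called falls. How the Hnf4a TSS compares with starts as methylated was not tested. The fall in the Hnf4a shores was thus near that of the median gene. Depth in the Hnf4a TSS window was 20.9 to 41.3 reads per CpG.

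The gene has further annotated starts, of which the farthest alone was tested. The pair of starts about 40.4 and 40.2 kb upstream, at the far promoter of the gene, also lay in methylated sequence in embryos, 83.3% to 88.6%, and were at 54.8% to 60.9% at E14.5 and 51.3% to 57.4% at E18.5. With the windows set on the farther of the pair, methylation fell by 28.8 points from E10.5 embryo to E14.5 liver (adjusted p = 2.28e-11, edgeR). A start 10.2 kb upstream had 69.3% to 78.3% at E10.5, 51.8% to 56.7% at E14.5 and 60.7% to 65.9% at E18.5, and one 2.9 kb downstream had 69.1% to 76.1%, 59.6% to 65.6% and 56.5% to 67.6% at the 3 stages. Of the 8 genes, Hnf4a had the highest RPKM in E14.5 liver and the most methylated TSS window in every library. WGBS, like the RNA, was of bulk tissue. The methylation of the cells that transcribe Hnf4a was therefore not measured.

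Across the 24 windows of the 8 genes, the liver differed from the embryo in both directions. A window was called where the adjusted p was under 0.05 and the difference over 5 points. Called falls numbered 8 of 24, against 68.0% of all 59125 windows, and called rises 1 of 24, against 2.71%. The falls were the 3 windows of Hnf4a, the 3 windows of Foxa3, and the gene bodies of Prox1 and Onecut1, which are the 8 windows that were at least 13.2% methylated in every embryo. The other 16 were at or below 9.99% there. On the adjusted p alone, 15 of the 24 windows rose, against 10.9% of all windows, most of them by small amounts from a start near 0. The median change of the 8 genes was 0.32 points at the TSS, 1.503 in the shores and -2.22 in the body, beside medians over all genes of -0.54, -14.6 and -13.7.

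**Figure D2:**
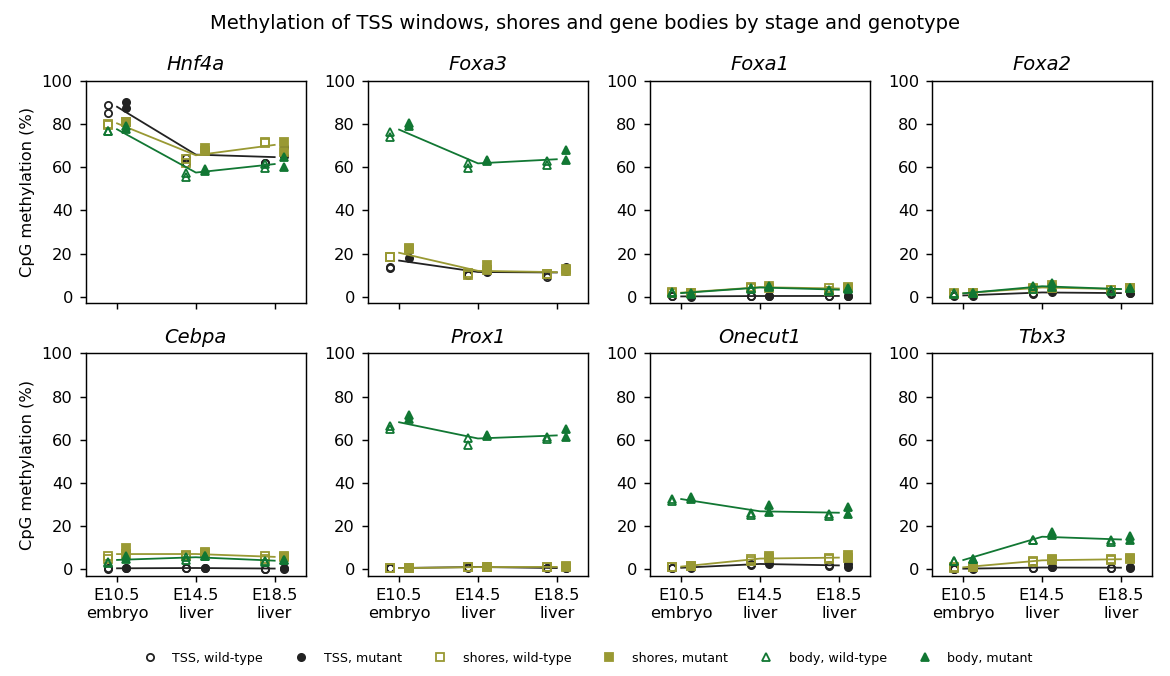
CpG methylation in percent of the TSS window (circles), shores (squares) and gene body (triangles) of each factor in the 12 libraries, with open symbols for wild types, filled symbols for mutants and lines through the mean of the 4 libraries of a stage. Hnf4a falls in all 3 windows from E10.5 embryo to liver, Foxa1, Foxa2 and Cebpa stay at or below 9.99%, and the gene body of Tbx3 rises.

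Foxa3 showed the next largest falls. Its gene body was 76.2% and 74.2% in wild-type and 80.3% and 79.1% in mutant embryos, and 59.5% to 63.2% in E14.5 livers, a fall of 15.6 points (adjusted p = 8.1e-09, edgeR). Its shores fell by 8.38 points and its TSS window by 5.29 points (adjusted p of 1.65e-07 and 3.78e-05). The fall in the TSS window dropped under 5 points, and so out of the calls, when the first mutant embryo (-4.39) or the second mutant E14.5 liver (-4.72) was left out, and in wild types alone it was -3.39. The gene bodies of Prox1 and Onecut1 fell by 7.53 and 5.68 points (adjusted p of 2.79e-05 and 0.000411, edgeR). These 2 falls and that of the Foxa3 shores were smaller than the medians over all genes, -13.7 points for bodies and -14.6 for shores. Prox1 went from 64.9%, 66.3%, 69.6% and 71.5% in embryos to 57.6%, 60.6%, 62.4% and 61.8% at E14.5, so that no E14.5 liver reached the lowest embryo. Without the second mutant E14.5 liver the fall of Onecut1 was 4.97 points, just under the call.

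Tbx3 went the other way. Its gene body was 3.58% and 3.75% methylated in wild-type and 4.85% and 4.71% in mutant embryos, then 13.6%, 13.4%, 15.8% and 17.3% at E14.5 and 13.3%, 12.7%, 15.3% and 13.7% at E18.5. Every liver lay above every embryo, the male E14.5 livers, at 13.6% and 15.8%, included, and the rise of 10.8 points to E14.5 passed the test (adjusted p = 8.35e-13, edgeR). Its shores rose from 0.57% to 1.09% in embryos to 3.36% to 4.92% at E14.5, and its TSS window stayed at or below 0.905% in all 12 libraries. Rises of the same small size past the adjusted p were measured in the shores of Foxa1 (2.54 points), Foxa2 (2.68) and Onecut1 (3.71). For Cebpa the shores moved by 0.033 points (adjusted p = 0.724), the only window of the 24 that missed the adjusted p.

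From E14.5 to E18.5 liver, a comparison that uses the same E14.5 livers, 0 of 24 windows were called, against 32.2% of all windows. At an unadjusted p under 0.05 the count was 10 of 24, beside 56.8% of all windows. At an adjusted p under 0.05, whatever the size, 2 were higher and 6 lower, beside 43.3% and 5.59% of all windows. The largest difference was 4.83 points in the shores of Hnf4a (adjusted p = 0.035, edgeR), which went from 61.9%, 63.7%, 69.0% and 67.7% to 71.1%, 71.9%, 71.7% and 66.9%. The second E18.5 mutant lay below the other 3 livers of its stage there. Without it 2 windows were called, and without the second wild-type E14.5 liver 1.

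Between the genotypes, the TSS window of Foxa3 in embryos was the only member window called. It was 13.2% and 13.95% methylated in wild-type and 21.7% and 18.1% in mutant embryos, 6.30 points higher in mutants (adjusted p = 0.041, edgeR over all windows). In E14.5 livers it was 10.1% and 10.3% against 13.8% and 11.6% (2.49 points, adjusted p = 0.531), and in E18.5 livers 9.01% and 10.2% against 11.9% and 13.8% (3.29 points, adjusted p = 0.295). Both mutants lay above both wild types at all 3 stages, with 25.5 to 48.02 reads per CpG. The embryo call did not hold when any 1 of the 4 embryos was left out, with differences of 4.502 to 8.10 points and adjusted p of 0.062 to 0.361.

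Within this window most of the difference lay downstream of the start, a split made after its values were seen and so described without a test. The upstream 1 kb, with 80 CpGs, was between 0.371% and 1.74% methylated in all 12 libraries, with 0.654% and 0.764% in wild-type and 1.33% and 1.35% in mutant embryos. It is shared with Sympk, a polyadenylation gene that starts 839 bp away and runs in the opposite direction. Exon 1, with 12 CpGs in 190 bases, was 5.50% and 6.99% in wild-type and 21.1% and 19.3% in mutant embryos. The first 811 bases of intron 1, with 26 CpGs, were 35.2% and 41.7% against 55.2% and 51.4% in embryos, 32.8% and 33.1% against 43.9% and 38.2% at E14.5, and 30.7% and 34.2% against 41.3% and 43.5% at E18.5. The mutants were above the wild types in exon 1 and in intron 1 at each stage. Of the 118 single CpGs in the window, both mutants exceeded both wild types at 36 in embryos, 22 at E14.5 and 20 at E18.5. The reverse held at 2, 0 and 0. The share over all CpGs was not computed and the window was picked by its call, so these counts only describe it.

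**Figure D3:**
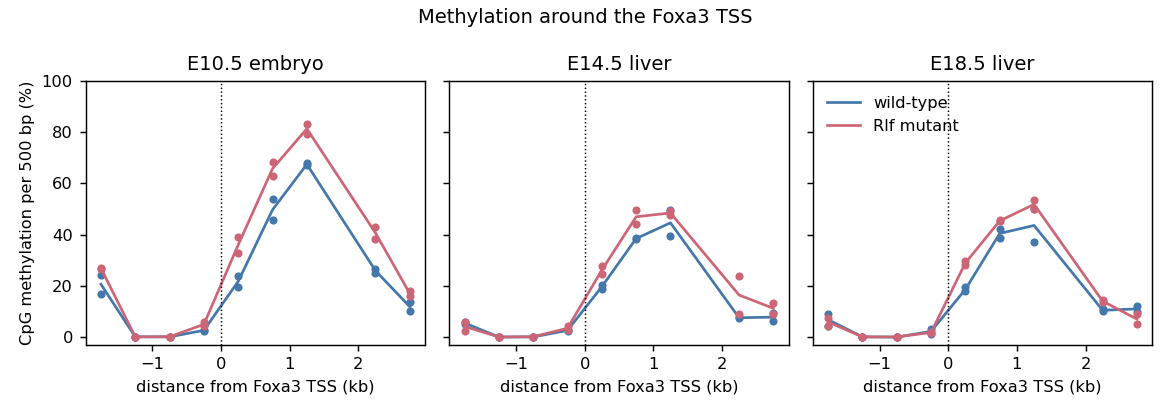
CpG methylation in percent by 500 bp bins with at least 5 CpGs against distance from the Foxa3 TSS in kb, with points for each library and lines for genotype means. Methylation is near 0 from 1.5 kb to 500 bp upstream and at most 5.80% in the 500 bp before the start. It climbs inside the gene, where the mutant embryos lie above the wild-type embryos.

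The 250 bases before the start, at the low end of methylation, and a part of intron 1 where it climbs are printed in the direction of the gene, on the minus strand, with CpGs in capitals.
Foxa3 upstream, chr7:19608888-19609137: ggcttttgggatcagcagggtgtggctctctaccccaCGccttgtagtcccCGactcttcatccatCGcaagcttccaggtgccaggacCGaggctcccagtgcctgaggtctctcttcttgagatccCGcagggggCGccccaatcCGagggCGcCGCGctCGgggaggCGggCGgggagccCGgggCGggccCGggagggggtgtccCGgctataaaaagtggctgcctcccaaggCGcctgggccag
Foxa3 intron 1, chr7:19608448-19608697: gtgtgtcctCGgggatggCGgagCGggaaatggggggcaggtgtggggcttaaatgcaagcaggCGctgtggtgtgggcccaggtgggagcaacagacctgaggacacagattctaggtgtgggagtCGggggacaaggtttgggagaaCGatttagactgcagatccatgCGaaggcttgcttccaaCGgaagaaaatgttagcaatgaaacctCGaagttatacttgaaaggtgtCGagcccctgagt
The first holds 18 CpGs. It was 0.246% and 1.22% methylated in wild-type and 5.42% and 3.56% in mutant embryos, and at most 2.61% in the livers, so the embryos separated by genotype here as well, at a lower level. The second holds 10, with 23.1% and 27.8% in wild-type and 41.1% and 36.8% in mutant embryos, 21.3% and 24.1% against 33.6% and 28.9% at E14.5, and 20.4% and 25.8% against 33.2% and 35.8% at E18.5.

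Foxa3 was also the factor whose transcript groups did not overlap. The labels do not tie the RNA libraries to the livers used for WGBS, so these values stand side by side only.

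Over all 24 windows, that of Foxa3 included, the genotype counts were 1 called at E10.5, 0 at E14.5 and 0 at E18.5, against 1.14%, 0.404% and 0.379% of all windows. At an unadjusted p under 0.05 the counts were 8, 10 and 4 of 24, beside 13.7%, 8.67% and 10.9% of all windows. Leaving out any 1 library of the stage lowered the counts at E10.5 and E14.5, and moved that at E18.5 both ways. The shores and gene body of Cebpa, whose single exon makes it the most compact of the genes, came next in embryos. The shores were 4.79% and 5.97% in wild types and 7.20% and 9.99% in mutants (3.21 points, adjusted p = 0.0723), and the body 2.89% and 3.34% against 4.64% and 6.24% (2.32 points, adjusted p = 0.0636). The second mutant embryo was the highest in both, and the E14.5 and E18.5 livers differed by 0.436 to 1.21 points. Both mutants lay above both wild types in 16, 19 and 13 of the 24 windows at E10.5, E14.5 and E18.5, against 41.8%, 39.8% and 33.8% of all windows. Both lay below in 3, 0 and 0, against 6.58%, 5.44% and 5.99%, and the 3 were the shores of Prox1 and the shores and body of Foxa1, all at or below 2.03% in embryos. Windows of 1 gene share reads, and the level over all CpGs was also higher in the mutants at E10.5 and E14.5. The part of that general level in the counts was not tested. Differences between stages in the effect of genotype, added as a test once the data had been seen, gave no adjusted p below 1.0 in 72 tests of these windows.

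The windows above cover the genes themselves, so 1 kb stretches with at least 8 covered CpGs were also tested within 50 kb of each start. There were 398 such stretches, from 23 around Foxa2 to 64 around Hnf4a. A stretch was called where the adjusted p over all 581510 stretches was under 0.05 and the difference over 15 points. Calls numbered 6 at each of the 3 stages, all higher in mutants, against 0.373%, 0.138% and 0.202% of all stretches at E10.5, E14.5 and E18.5. The direction was that of nearly all calls, with 2153 of 2167, 784 of 802 and 1146 of 1172 over all stretches higher in mutants. The calls near the factors were 12 different stretches, and 9 of them lay around Tbx3, where 4, 5 and 5 of 60 were called. Foxa1, Foxa3 and Prox1 had 1 each, and Hnf4a, Foxa2, Cebpa and Onecut1 had 0. Leaving out single libraries lowered the count to 2 at E10.5, without the first wild-type or the second mutant embryo, to 3 at E14.5, without the first wild-type liver, and to 3 and 2 at E18.5, without the first and the second wild-type liver. Without the E18.5 mutant that stood apart the count there was 5. Neighbouring stretches are not independent of each other, and no called stretch lay inside a factor's own TSS window.

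**Figure D4:**
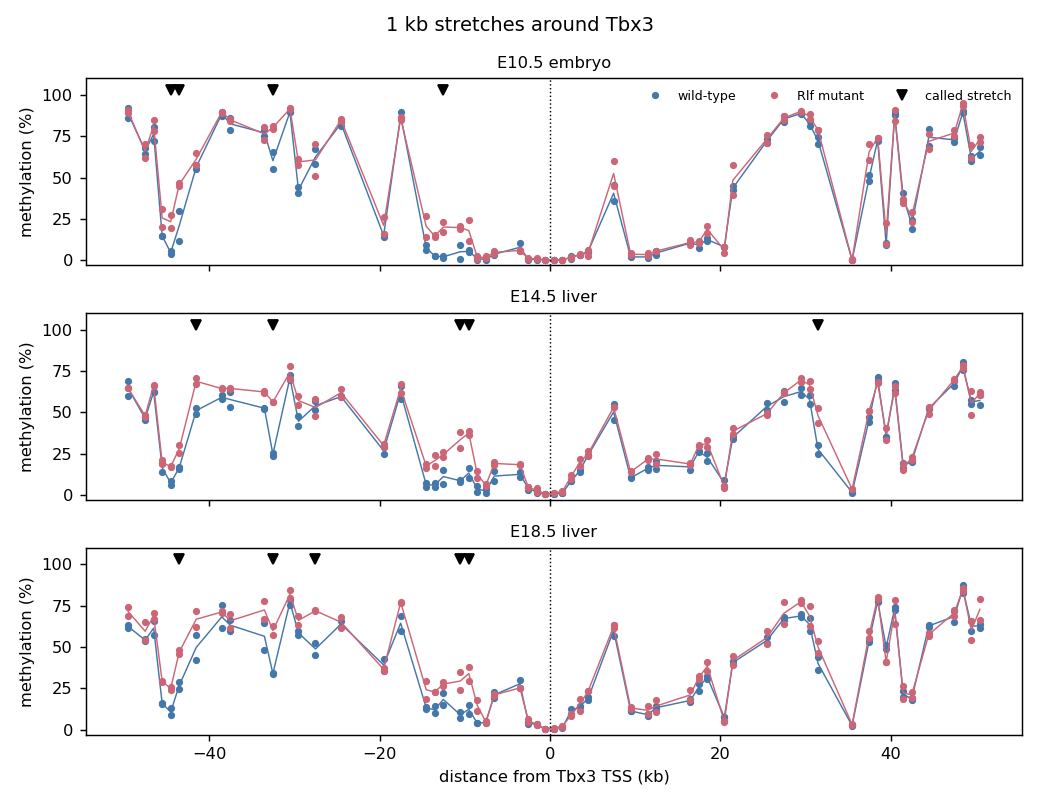
Methylation in percent of each tested 1 kb stretch against distance from the Tbx3 TSS in kb at E10.5 (top), E14.5 (middle) and E18.5 (bottom), with a point per library, lines for genotype means and triangles over called stretches. Called stretches stand in 3 places upstream, at 44.5 to 41.5 kb, 32.5 to 27.5 kb and 12.5 to 9.5 kb from the start, plus 1 downstream at E14.5, while the kilobases around the start are near 0 in both genotypes.

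The stretch 32.5 kb upstream of Tbx3, at chr5:120088001-120089000 with 12 CpGs, was the only one called at all 3 stages. It was 55.1% and 65.5% methylated in wild-type and 79.5% and 81.2% in mutant embryos, 23.8% and 25.7% against 56.5% and 56.1% at E14.5, and 34.6% and 33.4% against 62.9% and 57.2% at E18.5. The genotypes did not overlap at any stage, and the differences were 20.1, 31.5 and 26.0 points (adjusted p of 0.0003, 1.56e-07 and 0.000106, edgeR over all stretches). In both genotypes the stretch was less methylated in liver than in embryo. Depth was 26.4 to 58.1 reads per CpG, and without the first wild-type embryo the E10.5 difference was 14.9 points and no longer called.

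Nearer the gene, the adjoining stretches 10526 and 9526 bp upstream were low in wild types and called at E14.5 and E18.5. The first, with 13 CpGs, was 1.17% and 9.36% in wild-type and 18.9% and 20.8% in mutant embryos, 7.98% and 9.43% against 38.4% and 28.6% at E14.5, and 7.25% and 11.0% against 24.2% and 34.8% at E18.5. The differences were 14.6, 24.8 and 20.4 points, and the embryo value missed the 15 points only (adjusted p = 0.00238). The second, with 18 CpGs, was 6.11% and 4.87% against 11.5% and 24.6% in embryos, 10.52% and 16.3% against 38.9% and 36.1% at E14.5, and 14.9% and 9.82% against 29.8% and 38.2% at E18.5. Every mutant lay above every wild type of its stage in both. The E18.5 call was lost for the first without the first wild-type liver (adjusted p = 0.191) or the second mutant liver (0.0847), and for the second without the second wild-type liver (0.0924).

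The CpG-dense part of the stretches 32.5 kb and 10526 bp upstream is printed on the plus strand, with CpGs in capitals.
Tbx3, 32.5 kb upstream, chr5:120088352-120088601: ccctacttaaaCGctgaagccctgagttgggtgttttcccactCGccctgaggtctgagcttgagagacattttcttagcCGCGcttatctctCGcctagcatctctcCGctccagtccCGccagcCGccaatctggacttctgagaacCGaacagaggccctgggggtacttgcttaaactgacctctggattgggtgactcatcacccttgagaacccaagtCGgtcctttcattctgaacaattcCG
Tbx3, 10526 bp upstream, chr5:120110665-120110914: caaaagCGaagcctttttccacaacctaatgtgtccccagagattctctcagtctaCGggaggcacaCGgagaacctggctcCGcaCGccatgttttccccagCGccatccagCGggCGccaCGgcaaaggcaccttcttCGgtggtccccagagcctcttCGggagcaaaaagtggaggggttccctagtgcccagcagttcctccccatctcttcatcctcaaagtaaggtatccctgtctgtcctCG
These 250 bases hold 11 of the 12 and 11 of the 13 covered CpGs of the called stretches, so their values largely repeat the calls. The first was 24.96% and 27.6% in wild-type against 60.9% and 59.0% in mutant E14.5 livers, and the second 8.53% and 8.94% against 38.5% and 28.5%.

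Farther out, the stretch 43.5 kb upstream of Tbx3 was called in embryos and at E18.5, with 12.04% and 29.9% against 46.7% and 45.0% (24.9 points) and with 28.7% and 24.9% against 45.9% and 48.04% (20.2 points). The stretch 44.5 kb upstream was called in embryos only, 3.89% and 5.56% against 19.7% and 27.2% (18.7 points, adjusted p = 1.56e-08), although it also differed by 9.97 points at E14.5 and 14.1 at E18.5, with adjusted p of 0.000903 and 0.000897. Of the rest, the stretch 12.5 kb upstream was called at E10.5 (18.002 points). At E14.5 it differed by 13.3 points (adjusted p = 0.0199, edgeR) and missed the 15 points only. The stretches 41.5 kb upstream and 31.5 kb downstream were called at E14.5 (17.7 and 20.3 points), and that 27.5 kb upstream at E18.5 (23.03 points). The last was not higher in mutants at the earlier stages, at -1.81 and -1.10 points. The calls 41.5 kb upstream at E14.5 and 27.5 and 43.5 kb upstream at E18.5 were lost when any 1 of the 4 livers of the stage was left out, and that 27.5 kb upstream also with a coverage minimum of 1 read (adjusted p = 0.109). The call 31.5 kb downstream was lost without the first wild-type (adjusted p = 0.310) or the first mutant liver (0.344), and the embryo call 43.5 kb upstream without the first wild-type embryo (0.270). Without the second mutant embryo those 44.5 and 12.5 kb upstream fell just under 15 points, at 14.96 and 14.7. All 8 upstream stretches lie in Gm2301, a processed transcript that runs away from Tbx3 on the other strand. Tbx3 was the nearest protein-coding gene to each of the 9.

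Around the other factors the calls were single. For Foxa3 the stretch lay 42.6 kb upstream, at chr7:19651001-19652000, in an exon of Rsph6a, a gene of the sperm tail. With 45 CpGs it was 42.7% and 44.7% in wild-type and 55.8% and 52.9% in mutant embryos, 23.2% and 26.7% against 40.7% and 46.5% at E14.5, and 36.6% and 33.4% against 49.2% and 53.6% at E18.5. It was called at E14.5 (18.6 points, adjusted p = 0.000519) and E18.5 (16.4 points, adjusted p = 0.0168), not in embryos (10.7 points, adjusted p = 0.186). Its dense part, with 34 CpGs in 250 bases, is printed on the plus strand as the only called stretch around Foxa3. The E14.5 call was lost without the first wild-type or the second mutant liver, and the E18.5 call without any 1 of 3 of the livers.
Foxa3, 42.6 kb upstream, chr7:19651070-19651319: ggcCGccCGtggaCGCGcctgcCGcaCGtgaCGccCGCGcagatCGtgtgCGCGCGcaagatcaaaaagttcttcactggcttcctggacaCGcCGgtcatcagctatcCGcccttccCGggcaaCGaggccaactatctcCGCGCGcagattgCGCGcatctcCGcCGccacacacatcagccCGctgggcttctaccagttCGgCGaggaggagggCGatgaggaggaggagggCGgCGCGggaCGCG

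Foxa1 had 1 called stretch, 18.4 kb upstream in an exon of Ttc6, with 63.6% and 71.0% in wild-type against 88.9% and 85.7% in mutant embryos (20.03 points, adjusted p = 0.0187). It has 9 CpGs with 8.0 to 43.3 reads per CpG, and the E14.5 and E18.5 livers differed by 9.03 and 6.56 points, not called. Prox1 had 1, 20.9 kb upstream in an intron of Gm17566, with 24.3% and 32.4% against 44.6% and 43.8% in embryos (15.9 points, adjusted p = 0.0333). This stretch was more methylated in liver, at 64.0% to 75.7% at E14.5 and 76.4% to 86.1% at E18.5, where the genotypes differed by 8.04 and 4.78 points. The calls at Foxa1 and Prox1 were lost when any 1 of 3 of the embryos was left out, and that at Prox1 also with a coverage minimum of 1 read (14.1 points, adjusted p = 0.0906).

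Calls past the threshold at 1 stage and not at another were not shown to differ between stages. In 1194 tests of the genotype effect between stages over the 398 stretches, the lowest adjusted p was 0.415. The median difference over the 398 stretches was 1.20, 2.59 and 1.92 points at E10.5, E14.5 and E18.5.

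A final description, with no test, follows how far the low methylation around each start reaches. From the TSS outwards it was taken as the stretch in which each run of 5 CpGs had under 20% methylated reads. In embryos it spanned 18.4 to 18.8 kb at Foxa1, 18.9 to 19.0 kb at Onecut1, 16.1 to 21.8 kb at Tbx3, and 8.18 to 18.7 kb at Foxa2, against 7.83 to 9.09 kb at Prox1, 3.75 to 3.93 kb at Cebpa and 1.77 to 2.15 kb at Foxa3. It was absent at Hnf4a in all 12 libraries. At Tbx3 it measured 21.8 and 21.8 kb in wild-type and 17.1 and 16.1 kb in mutant embryos, 18.4 and 12.9 kb against 7.25 and 6.65 kb at E14.5, and 5.92 and 6.99 kb against 7.71 and 6.81 kb at E18.5. Mutants were shorter than wild types at the first 2 stages and not at E18.5. At Onecut1 the stretch was 6.45 to 8.05 kb at E14.5 and 4.56 to 6.16 kb at E18.5, without a separation by genotype. Over all 12 libraries it ran from 7.83 to 9.575 kb at Prox1 and from 3.70 to 4.365 kb at Cebpa. At Foxa3 it was 2.15 and 2.07 kb in wild-type and 1.77 and 1.79 kb in mutant embryos, 2.42 and 2.26 kb against 2.104 and 2.20 kb at E14.5, and 2.11 and 2.11 kb against 2.20 and 2.095 kb at E18.5. Both mutants were shorter at the first 2 stages and not at E18.5. At Foxa1 the stretch overlapped between the genotypes in embryos. Both mutants were shorter there at E14.5, with 18.8 and 20.6 kb in wild types against 18.4 and 8.03 kb. They were also shorter at E18.5, with 17.0 and 16.9 kb against 14.6 and 12.4 kb. At Foxa2 the genotypes did not separate at any stage, and the wild-type E14.5 livers alone were at 21.05 and 8.83 kb. A single run of 5 CpGs at the 20% limit sets each end, so lengths can jump between like libraries. How often the genotypes separate in this way over all genes was not computed.

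**Figure D5:**
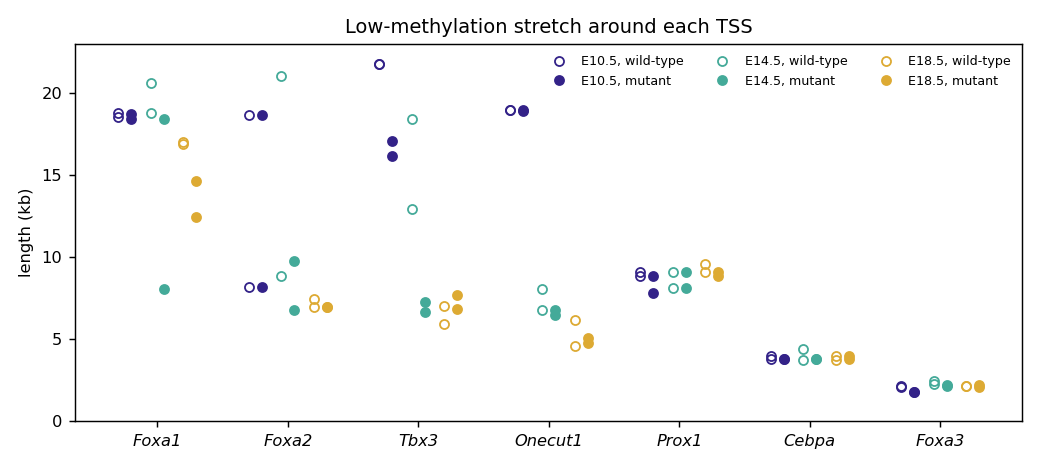
Length in kb of the low-methylation stretch around the TSS of 7 factors, with open points for wild-type and filled points for mutant libraries and colours for stage. At Onecut1 all 4 embryos exceed all 8 livers, at Tbx3 both wild-type embryos do, and the stretch at Foxa3 is between 1.77 and 2.42 kb in all 12 libraries.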

How the data were processed

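Per the labels and the study's methods, WGBS reads were aligned by the authors with Bismark and Bowtie2 to mm9 with FVB substitutions, and duplicates were removed. Each deposited file lists, per CpG with both strands merged, a count of methylated and one of unmethylated reads, beside a percent that the authors rounded and that was not used here. RNA-seq reads (single-end, unstranded) were aligned by the authors with TopHat and counted with HTSeq per gene of the Ensembl annotation, and the deposited counts are not normalized.

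Counts were tested with edgeR 4.0.16 (limma 3.58.1, R 4.3.3) by its quasi-likelihood test, for RNA with TMM normalization and its default filter on low counts, and for WGBS on the methylated beside the unmethylated count of each library, with its own intercept and all 12 libraries in the fit. P-values were adjusted over all genes, windows or stretches tested (Benjamini-Hochberg). The scripts were tested on simulated data. Gene models are GENCODE vM1 on NCBIM37 (mm9), the TSS is the 5′ end of the transcript with the longest coding sequence, and windows needed at least 5 and stretches at least 8 CpGs with 6 reads in all 12 libraries. RPKM used exon length. Tables were made with Python 3.11.15, pandas 2.3.3 and NumPy 2.4.6 and figures with matplotlib 3.10.9. Each RNA library held 12928313 to 14621004 counts, and WGBS depth was 16.8 to 35.4 reads per listed CpG. Unconverted cytosines in lambda DNA were 0.041% to 0.078%. Depth covers counting error only.

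The 8 genes, the lists and the tests were chosen with earlier results of these data known. Named are the 8 factors, Rlf, list genes that passed the test or define a list, the 3 genes most like the factors, and up to 2 called stretches per factor and stage with the largest difference. The other called stretches and the genes that overlap or neighbour a factor are named besides. The RNA livers numbered alike moved together around the mean of their group (r = 0.123, 0.232 and 0.413 over 14183 genes), which is the source of that pairing. The number 3 liver of each genotype is the female one. Alternatives were DESeq2 1.42.0, its size factors, no filter, sex, a replicate block, other coverage minimums, another TSS, other minimum differences, another distance, fits by stage, wild types alone, unweighted means, leaving out each library and, added after the data had been seen, sex as a term at E14.5 in WGBS. H3K4me1 samples were not analysed here.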

Additional observations from a re-analysis of the deposited data

How the results depend on the processing

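None of the 8 factors was called in RNA under any alternative, and the direction turned for Foxa2 alone, to 0.0772 without the second wild-type and 0.0023 without the third mutant liver, in a range of -0.207 to 0.0772 with single livers left out (log2). The number of genes called over all genes was 197, and it was 532 without a filter, 460 with a replicate block, 257 by DESeq2 and 66 to 224 with single livers left out. Windows called between the genotypes at E10.5 went from 1 to 0 when any 1 of the 4 embryos was left out, a range of 0 to 0. Windows called between E14.5 and E18.5 went from 0 to 1 with a coverage minimum of 1 read, with one of 10 reads and in wild types alone, and were 0 to 2 with single libraries left out. The 6 stretches called at E10.5 became 11 at a minimum difference of 10 points, 3 at 20 points, 0 within the gene span plus 10 kb and 2 to 7 with single embryos left out. The 6 at E14.5 became 2 within the gene span plus 10 kb and 3 to 7 with single livers left out, and the 6 at E18.5 became 2 and 2 to 5. Fewer libraries or a shorter distance account for part of this by construction, and otherwise the cause was not tested. Of 96 counts compared 77 stayed within 1.5 times, of 126 values of windows 118 and of 132 values of stretches 98 kept their call, and 34 stretch values kept their direction but not the call. With unweighted means over CpGs, 16 of 72 differences between the genotypes in windows moved by more than the spread of the replicates, by up to 1.43 points, and 2 differences changed sign.

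With a replicate block in the WGBS fits the counts were 1, 0 and 0 windows and 6, 6 and 6 stretches between the genotypes, and 9 and 0 windows between the stages, so this pairing changed no count. At E14.5 the number goes with sex, with number 1 male and number 2 female in both genotypes, and at E10.5 and E18.5 the labels tie it to nothing. The correlation of replicate differences between the genotypes was 0.096, 0.285 and -0.035 over 59125 windows at E10.5, E14.5 and E18.5. With sex as a term at E14.5, chosen after seeing the data, 0 windows and 6 stretches of the factors were called there, while over all windows the count went from 239 to 476. Differences under 5 points in windows and 15 in stretches were not called whatever their p. Of the called stretches, that 12.5 kb upstream of Tbx3 had the fewest CpGs, 8. That of Foxa1, with 9 CpGs, had the lowest depth, down to 8.0 reads per CpG.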
